A study of Drosophila melanogaster with 4 samples.

Results

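The transcripts described here are the targets that the Drosophila melanogaster array lists under a RefSeq non-coding RNA accession, that is, an accession that begins with NR_. They are 86 of the 26228 targets on the array and are read by 109 probes. All of them were kept, whether or not they gave a signal, and where a target had several probes the one with the highest mean signal over the 4 arrays stood for it. A RefSeq gene table named 40 of the 86 targets, which belong to 37 genes, and the other 46 are known here by accession only. RNA came from whole embryos homozygous for grhIM (+; cn, grhIM, bw, sp; +) and from wild-type embryos (y; cn, bw, sp; +), both collected at late stage 16 to early stage 17 after development at 25°C. The allele grhIM is a mutation of grainy head (grh), which encodes a transcription factor of the epidermis, and it places a stop codon in the part of the gene that encodes the DNA-binding domain. The chromosome markers cn, bw and sp were shared by both genotypes, while y was carried by the wild-type strain only. Mutant embryos were the offspring of heterozygous parents and were picked by the absence of the GFP that marks the balancer chromosome, so the contribution of heterozygous mothers to the egg was present in them. Each genotype had 2 replicates, each a pool of about 500 embryos, and each of the 4 RNA samples was hybridised to 1 array.

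Non-coding RNAs act as RNA and are not translated. The best known kinds in Drosophila are small and highly structured: the small nuclear RNAs (snRNAs) of the spliceosome, the small nucleolar RNAs (snoRNAs) that guide the modification and cleavage of ribosomal RNA, the 7SL RNA of the signal recognition particle and the RNA of RNase MRP. Long non-coding RNAs are a mixed class that includes roX1 and roX2, which join a protein complex on the single X chromosome of males, and Hsromega, which is induced by heat shock. Most of the small structured RNAs have no poly(A) tail. Kits for linear amplification of this kind start from a primer that binds poly(A), so the signal of such a target need not follow the amount of the mature RNA.

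Signal levels were similar on the 4 arrays. Gene spots had median raw signals of 557 and 594 in grhIM against 564 and 629 in wild-type, and negative-control spots had medians of 53 to 57.5. All 4 arrays lay on 1 slide, with 1 array at each position, so position and genotype cannot be told apart. Of the marker genes listed for the tissues of the embryo, the RefSeq table tied only a pair from the epidermis and cuticle, Cpr60D and obst-B, to a target, so the whole-embryo label was hardly checked. Both were lower in grhIM, by 7.09 and 1.98 on the log2 scale.

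Most non-coding RNA targets gave a signal. Using the scanner's own flag, 72 and 73 of the 86 targets were well above background on the grhIM arrays, against 72 and 77 on the wild-type arrays. In shares these were 83.7% and 84.9% for grhIM and 83.7% and 89.5% for wild-type, where all targets of the array gave 74.5% and 78.8% for grhIM and 76.4% and 82.2% for wild-type. On all 4 arrays together, 71 non-coding targets (82.6%) passed, against 72.9% of all targets. On none of them were 9 (10.5%), against 16.6% of all targets. A target was tested if it was well above background on both arrays of at least 1 genotype, which held for 73 of the 86 (84.9%) and for 20340 of all targets (77.6%).

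Non-coding RNAs were called about as often as other targets. A change was called at a limma adjusted p under 0.01, and 8 of the 73 tested targets passed, 4 higher and 4 lower in grhIM. Of all tested targets, 9.23% were called, 4.02% as higher and 5.21% as lower, so the share of non-coding targets, 11.0%, was close to that of the array. The higher ones were the long non-coding RNAs CR33942 and bxd and the unnamed NR_001975 and NR_003991. The lower ones were the spliceosomal U2:34ABb and the unnamed NR_002062, NR_001617 and NR_002490. Of these 8, bxd passed the filter through the grhIM arrays alone. Where all 4 arrays had to be well above background it was not tested. In that setting 7 of 71 targets (9.86%) were called, against 8.53% of all. At an adjusted p under 0.05 the count was 17 of 73, with 8 higher and 9 lower, where 20.8% of all targets passed. A fitted difference of at least 2-fold was seen for 10 targets (13.7%), against 11.5% of all.

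Most of the differences were small and below 0. Of the 73 tested targets, 52 had a lower mean in grhIM and 21 a higher one, a positive share of 28.8% where all targets had 48.6%. The median difference, grhIM minus wild-type on the log2 scale, was -0.16 for the non-coding targets and -0.01 for all targets. The median size of the difference, without its sign, was 0.26 in both. The arrays of the genotypes did not overlap for 52 targets, 15 with both grhIM arrays higher and 37 with both lower, against 30.6% and 33.6% of all targets (71.2% of the non-coding targets and 64.2% of all in either direction). The median standard deviation between replicates of a non-coding target was 0.08 in grhIM and 0.12 in wild-type, against 0.08 and 0.14 for all tested targets. For both sets of targets the median size of a difference was above this median spread, which 2 arrays per genotype give only roughly. In bulk RNA of whole embryos, fewer cells that express a transcript and less of it per cell cannot be told apart.

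**Figure D1:**
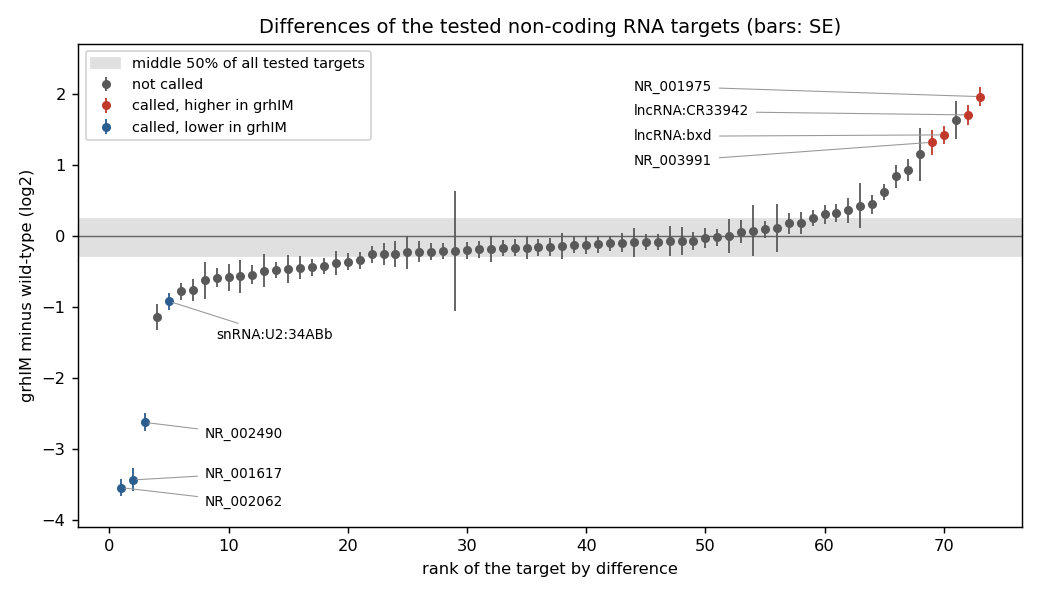
Difference between grhIM and wild-type (log2, y axis) of the 73 tested non-coding RNA targets, ordered by their difference (x axis), with bars for the standard error and a grey band for the middle 50% of all tested targets. Called are 8 targets, and 52 of the 73 points lie below 0.

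The targets were described by kind of RNA, and the difference between kinds was not tested. Over all tested targets, 48.6% were above 0 and 9.23% were called, 4.02% as higher and 5.21% as lower. The 13 tested small structured RNAs (5 snRNAs, 5 snoRNAs or Cajal body RNAs, 7SL, RNase MRP RNA and a short non-coding RNA) had a lower mean in grhIM in 12 cases, with a median difference of -0.21, and 1 of them was called. The 20 tested long non-coding targets were spread around 0, with 11 below it, a median of -0.04 and 2 called as higher. The 39 tested unnamed targets had 28 below 0 and a median of -0.13, with 2 called as higher and 3 as lower. The small structured RNAs also moved together between the replicates: the first grhIM array read lower than the second in 11 of 13, by a median of 0.23, where this was so for 46.6% of all tested targets. Without that first array 9 of the 13 were below 0, with a median of -0.19, so their count rests partly on 1 library. Of the 39 unnamed targets, 26 also read lower on the first grhIM array than on the second, with a median gap of -0.04 over the 39. Their first wild-type array was the lower in 9 of 39, against 47.6% of all tested targets. Without the first grhIM array 27 of the 39 were below 0, with a median of -0.08.

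The 5 spliceosomal RNAs were all lower in mean, where 28.8% of all tested non-coding targets and 48.6% of all targets had a higher mean. U2:34ABb on chromosome arm 2L encodes a U2 snRNA, which pairs with the intron branch point. It had normalised log2 signals of 11.74 and 11.85 in grhIM, against 12.79 and 12.65 in wild-type. Every grhIM array was below every wild-type array, the difference was -0.92 ± 0.12 (SE, n = 2 per genotype), and with a limma adjusted p of 0.00803 it was the only small structured RNA that was called. The call was lost when any 1 array was left out, at adjusted p of 0.0192 to 0.0657. It was also lost without normalisation (0.0124), with spike-in scaling (0.0159) and without the filter on dim probes (0.0246). U2 genes occur in near-identical copies, so the signal cannot be given to this copy alone.

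The other 4 snRNAs did not pass. The U1 snRNA recognises the 5′ splice site. Its target U1:82Eb read 8.19 and 8.35 in grhIM and 8.63 and 8.66 in wild-type, a difference of -0.37 ± 0.12 with an adjusted p of 0.0975. U1:21D read 11.91 and 12.14 in grhIM and 12.35 and 12.05 in wild-type, and here the genotypes overlapped (-0.17 ± 0.16, adjusted p of 0.516). U1 is also made from several near-identical genes. U11 and U12 belong to the minor spliceosome, which removes a rare class of introns. U12, which lies inside Baldspot, read 7.40 and 7.48 in grhIM and 8.08 and 7.70 in wild-type (-0.45 ± 0.16, adjusted p of 0.126), while U11, inside Fie, overlapped between the genotypes (-0.09 ± 0.20, adjusted p of 0.785).

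The RNAs of protein targeting and ribosomal RNA processing did not pass the test. The 7SL RNA is the scaffold of the signal recognition particle, which brings secretory proteins to the endoplasmic reticulum. It read 11.44 and 12.08 in grhIM and 12.33 and 12.34 in wild-type. Both grhIM arrays were lower, but they were also far apart from each other, and the difference was -0.57 ± 0.23 with a limma adjusted p of 0.157. Without the first grhIM array the difference was -0.25. The RNA of RNase MRP, an enzyme that cuts the ribosomal RNA precursor, lies inside CG10365 and read 12.17 and 12.55 in grhIM and 12.68 and 12.82 in wild-type (-0.39 ± 0.17, adjusted p of 0.181).

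The snoRNAs and the Cajal body RNA lay close to 0. The U3 snoRNA acts in the early cleavages that free 18S ribosomal RNA and has several genes with near-identical sequence. Its targets, U3:9B on the X chromosome and NR_002544 on 2R, differed by -0.08 ± 0.21 and -0.07 ± 0.20, with adjusted p of 0.831 and 0.830. In both, 1 grhIM array lay above and the other below the wild-type arrays. Psi28S-291 and Psi28S-2566 guide the conversion of uridine to pseudouridine in 28S ribosomal RNA and lie inside RpL3 and CG3902. They differed by -0.23 ± 0.24 and -0.17 ± 0.12, with adjusted p of 0.536 and 0.382. The small Cajal body RNA MeU5-C46, which guides the modification of the U5 snRNA and lies inside CG1142, was the single small structured RNA with a higher mean in grhIM, 0.18 ± 0.15, adjusted p of 0.450. The last of the group, the short non-coding RNA NR_002511, lies inside the muscle gene Msp300 and differed by -0.21 ± 0.12 with an adjusted p of 0.294.

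A pair of genes whose introns carry snoRNAs, and whose spliced RNA has no protein product, went opposite ways in mean. Uhg3, which holds 3 snoRNA genes for methylation of 28S ribosomal RNA, read 11.63 and 11.71 in grhIM and 11.03 and 11.07 in wild-type. Both grhIM arrays were higher, by 0.62 ± 0.11, and its 2 probes both gave 0.62. The limma adjusted p was 0.0205, which misses the threshold. It lay between 0.00773 in the deposited table and 0.203 with spike-in scaling, and 4 of 17 alternatives called the target. Among these 4 is the same fit read at an adjusted p under 0.05, whose outcome was fixed by the value above. Uhg2, which holds 4 snoRNA genes, read 9.12 and 9.32 in grhIM and 9.57 and 10.03 in wild-type, a difference of -0.58 ± 0.19 with an adjusted p of 0.0997. The wild-type arrays of Uhg2 lay farther apart than the nearest arrays of the genotypes.

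The roX RNAs of dosage compensation were read by 4 targets, a pair for each gene, and none was called. Both genes lie on the X chromosome, and their RNAs coat the male X as parts of the MSL complex. The target NR_002097 of roX1 read 12.95 and 12.87 in grhIM and 13.42 and 13.29 in wild-type, which is -0.45 ± 0.12 with a limma adjusted p of 0.0572. The target NR_002105 of roX2 read 11.57 and 11.59 in grhIM and 12.02 and 11.99 in wild-type, which is -0.43 ± 0.11 with an adjusted p of 0.0527. In both, the grhIM arrays lay below the wild-type arrays by more than the replicates differed.

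The second target of each roX gene was nearer to 0. For roX1, NR_002098 read 14.77 and 14.76 in grhIM and 14.97 and 14.91 in wild-type (-0.17 ± 0.11, adjusted p of 0.328). Its 3 probes gave -0.17, -0.05 and 0.05. For roX2, NR_002104 read 10.59 and 10.47 in grhIM and 10.45 and 10.44 in wild-type (0.09 ± 0.11, adjusted p of 0.638), and its sign turned to -0.01 with spike-in scaling. The 2 accessions of a gene thus gave unequal differences, and whether they read different transcripts of it was not tested. Of the 9 tested named targets on the X chromosome, 8 were below 0, and limma called none of them. They include all the roX targets and a neighbouring pair inside Ten-a, and the unnamed targets have no known chromosome here. A higher mean in grhIM was seen for 28.8% of the tested non-coding targets and 48.6% of all tested targets. An unadjusted p under 0.05 was found for 5 of these 9, for 35.6% of the non-coding targets and for 34.8% of all targets. The MSL complex proteins of the fixed list had no target that the table named, and were not analysed here.

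**Figure D2:**
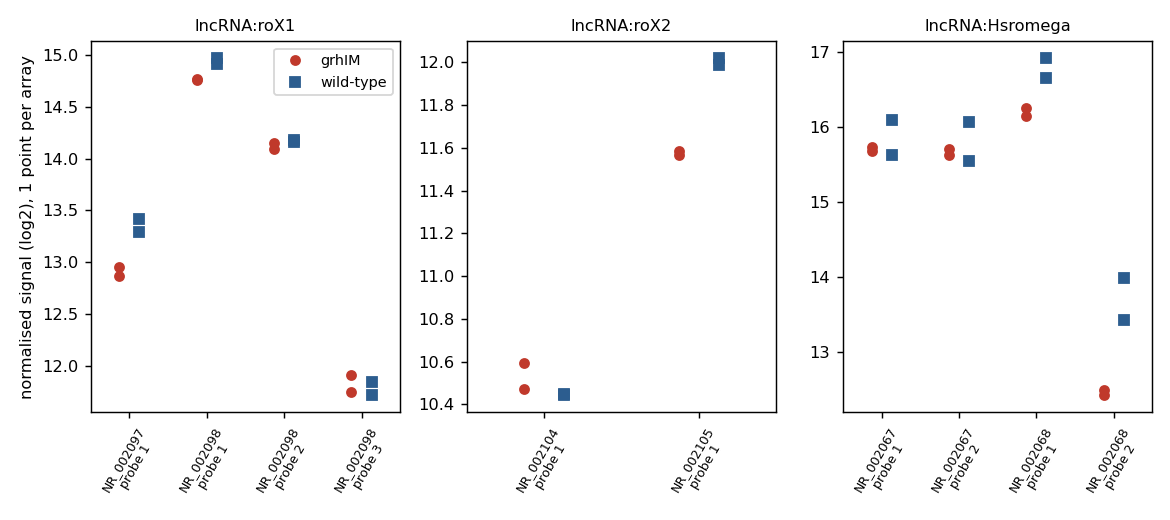
Normalised log2 signal (y axis) of each probe (x axis) of roX1, roX2 and Hsromega, with 1 point per array, circles for grhIM and squares for wild-type. For NR_002097 of roX1, NR_002105 of roX2 and both probes of Hsromega NR_002068, all grhIM points lie below the wild-type points, and those of the other targets are close together or overlap.

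Heat-shock loci were read by 3 targets. Hsromega makes a nuclear RNA that gathers RNA-binding proteins in omega speckles, and it is transcribed without heat shock too. Its target NR_002068 read 16.24 and 16.14 in grhIM and 16.91 and 16.65 in wild-type, a difference of -0.59 ± 0.14 with a limma adjusted p of 0.0437. A dimmer probe of the same accession read 12.50 and 12.43 in grhIM and 13.99 and 13.44 in wild-type, a difference of -1.25 ± 0.22 with an adjusted p of 0.0163 over all probes. The grhIM arrays were the lower ones on both probes, and neither passed the threshold.

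The other Hsromega target, NR_002067, did not show this. It read 15.73 and 15.68 in grhIM and 16.09 and 15.62 in wild-type, so that 1 wild-type array lay below both grhIM arrays. Its difference was -0.15 ± 0.18 with a limma adjusted p of 0.608, its other probe gave -0.14, and without the first wild-type array the difference was 0.07. The third target is the alphagamma element CR32865, a non-coding RNA at the Hsp70 cluster of chromosome arm 3R, listed between Hsp70Ba and Hsp70Bbb. It read 10.54 and 10.49 in grhIM and 9.40 and 9.77 in wild-type. Both grhIM arrays were higher, by 0.93 ± 0.16 or 1.90-fold, with an adjusted p of 0.0180. It was called in 3 of 17 alternatives, the replicate block among them (0.00854), with adjusted p up to 0.0932 (spike-in scaling). Among these 3 is the same fit read at an adjusted p under 0.05, whose outcome was fixed in advance. The table used here gave no names to targets of the Hsp proteins and the heat-shock factor on the fixed list, which were not analysed here.

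Of the long non-coding RNAs, CR33942 rose most. This gene of 561 bases on chromosome arm 2R, listed between Vps51 and Hs3st-A, has no role given here. It read 9.96 and 9.94 in grhIM and 8.40 and 8.09 in wild-type. The grhIM arrays agreed closely and lay above both wild-type arrays, and the difference was 1.70 ± 0.14, which is 3.25-fold (limma adjusted p of 0.00222). The call was lost with normexp background correction, where the difference was 1.26 (0.0434). In that setting 2.63% of all targets were called, against 9.23% in the main fit. Without the first wild-type array the difference was 1.85.

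The bithorax RNA bxd also rose, at a level near the limit of detection. It is transcribed from the regulatory region of the same name beside Ubx on chromosome arm 3R, a homeotic gene that sets the identity of the posterior thorax and the first abdominal segment, and it covers 31065 bases in the RefSeq table. It read 5.12 and 5.0 in grhIM and 3.74 and 3.55 in wild-type, where the dimmest probes well above background read 3.35 and 2.97 in grhIM and 3.03 and 2.62 in wild-type. It was well above background on both grhIM arrays and on 1 wild-type array. It thus entered the test only through grhIM, where it read higher, and a filter that needs all 4 arrays left it out. The difference of 1.42 ± 0.13 (2.68-fold) had a limma adjusted p of 0.00268.

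The size of the bxd difference moved with the treatment of the background signal. It was 0.41 in the raw median signal (0.0469), 0.40 in the deposited table (0.0514) and 0.24 with normexp correction (0.275), none of them called. The call was also lost without the filter on dim probes (0.0106), and without the first grhIM or the second wild-type array. With 1 array left out the difference lay between 1.33 and 1.54. Ubx, abd-A and Abd-B had no target named by the table and were not analysed here.

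CR32661, an X-linked gene of 873 bases, had the lowest difference of the named targets. It read 6.27 and 6.27 in grhIM and 7.64 and 7.18 in wild-type, a difference of -1.14 ± 0.18 with a limma adjusted p of 0.0147. It missed the threshold, and it was called with scaling to the 75th percentile (0.00860), with quantile normalisation (0.00937), with spike-in scaling (0.00526), without normalisation (0.00558), with the replicate block (0.00477) and without the second wild-type array (0.00924). It was smaller in the raw median signal (-0.79, adjusted p of 0.0106), in the deposited table (-0.77, 0.0113) and with normexp correction (-0.47, 0.0815). Its second probe gave -0.68. Both grhIM arrays lay below both wild-type arrays on each probe.

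A pair of neighbouring RNAs inside Ten-a, a gene for a teneurin that matches synaptic partners, were both lower in mean. CR32658 read 9.37 and 9.38 in grhIM and 9.81 and 9.92 in wild-type, a difference of -0.49 ± 0.11 with a limma adjusted p of 0.0411, and its second probe gave -0.59. CR32657 read 6.04 and 5.88 in grhIM and 6.40 and 6.62 in wild-type, a difference of -0.55 ± 0.14 with an adjusted p of 0.0508. In each the genotypes did not overlap, as in 64.2% of all tested targets, and neither was called.

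Other long non-coding RNAs lay near genes of the cuticle or inside larger genes. CR33938, listed between the cuticle protein genes Ccp84Ac and Ccp84Ab, read 7.20 and 6.99 in grhIM and 6.74 and 6.56 in wild-type, a difference of 0.44 ± 0.14 with a limma adjusted p of 0.0915. CR33987, inside tio, read 6.01 and 6.20 in grhIM and 5.74 and 5.87 in wild-type (0.30 ± 0.13, adjusted p of 0.178), and CR33963, inside Tis11, differed by -0.08 ± 0.11 (0.638). The genotypes did not overlap in these 3, as in 64.2% of all tested targets, and none was called. The antisense RNA Eig63F-2 overlaps Eip63F-1, a gene induced by the moulting hormone ecdysone. It read 3.94 and 3.51 in grhIM and 4.65 and 4.05 in wild-type and was well above background on neither grhIM array and on both wild-type arrays. Its fitted difference was -0.63 ± 0.26 with an adjusted p of 0.161, and since it was -0.07 in the raw median signal and 0.05 with normexp correction, its direction is not settled.

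A further pair of long non-coding RNAs gave no stable value. The gene sphinx on chromosome 4, inside fuss, arose in part from a copy of an ATP synthase gene, so its signal cannot be given to it alone. It read 16.25 and 16.29 in grhIM and 15.38 and 16.31 in wild-type, a difference of 0.42 ± 0.32 with a limma adjusted p of 0.407, and without the first wild-type array the difference was -0.06. The Su(Ste) target CR42418 belongs to a cluster of Y-linked repeats that silence the Stellate genes. It read 10.29 and 9.96 in grhIM and 10.42 and 9.84 in wild-type, so that the replicates of a genotype lay farther apart than the genotype means (difference 0.00 ± 0.24, adjusted p of 0.999).

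**Figure D3:**
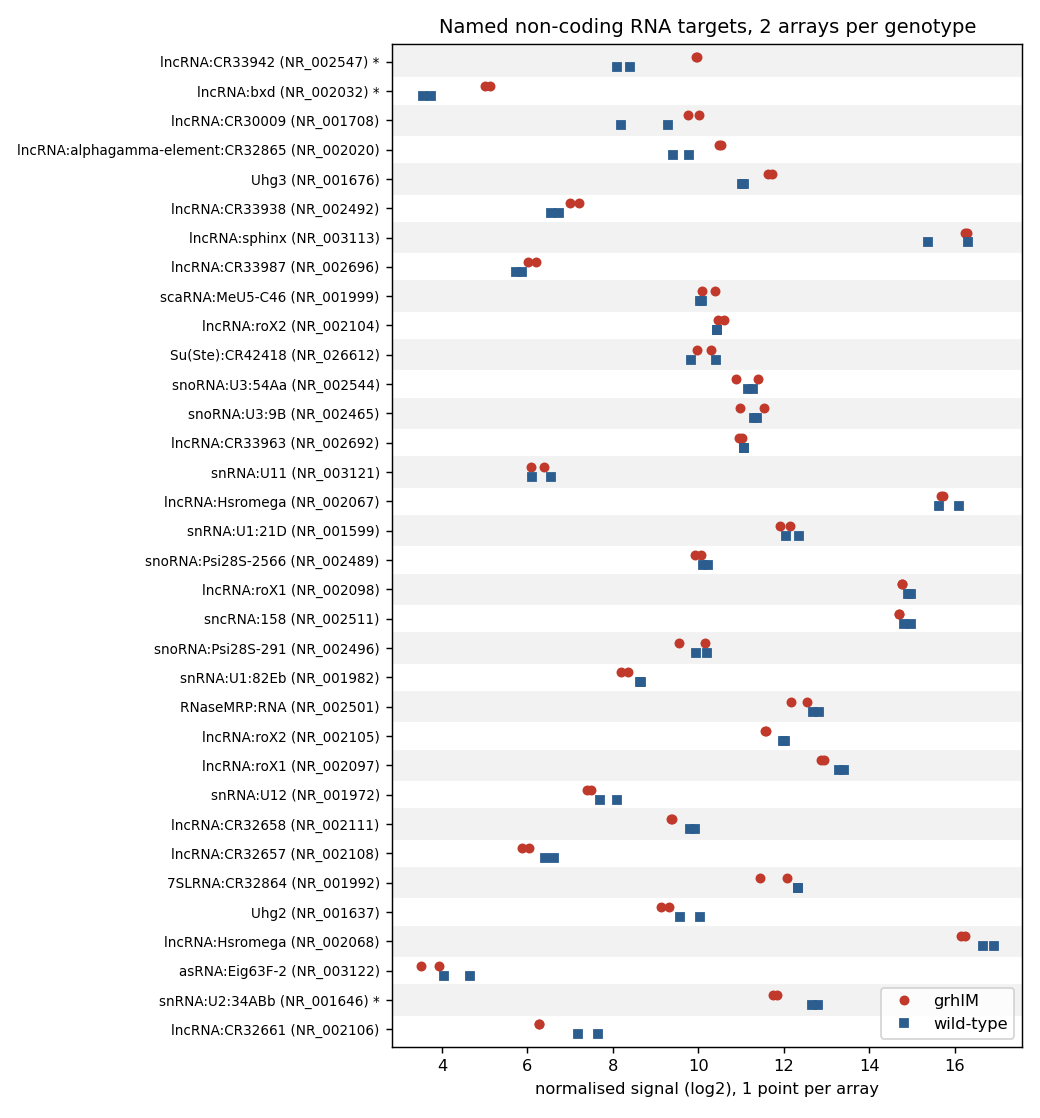
Normalised log2 signal (x axis) on each array of the 34 tested named targets, ordered by their difference (y axis), with circles for the 2 grhIM arrays, squares for the 2 wild-type arrays and a star after the name of called targets. The genotypes are clearly apart for CR33942 and bxd at the top, while those of most targets differ by less than 0.5.

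Of the 46 unnamed targets, 39 were tested and 5 were called, where 9.23% of all tested targets were called. Of these 5, NR_002490 was named after its values were seen, as were the uncalled accessions given further on. NR_001975 read 14.68 and 14.80 in grhIM and 12.66 and 12.90 in wild-type, the highest difference of all tested non-coding targets at 1.96 ± 0.14, which is 3.89-fold (limma adjusted p of 0.00131). It was called in every setting that kept all 4 arrays. With 1 array left out its difference lay between 1.83 and 2.07. NR_003991 read 9.20 and 9.61 in grhIM and 8.16 and 8.02 in wild-type, 1.32 ± 0.18 or 2.49-fold, with an adjusted p of 0.00862. That call was kept in 9 of 17 alternatives, among them the same fit read at an adjusted p under 0.05, which could not lose it. It was lost with normexp correction (0.0714), with spike-in scaling (0.0153) and with no normalisation (0.01005). Nor did it pass without the filter on dim probes (0.0253) or as a mean over probes (0.984). The other losses were in fits with 1 array left out, where the difference lay between 1.11 and 1.52.

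The falls among the unnamed targets were larger than the rises. NR_002062 read 6.97 and 6.80 in grhIM and 10.47 and 10.40 in wild-type, which is -3.55 ± 0.12 or 11.7-fold lower with a limma adjusted p of 0.000259. NR_001617 read 5.91 and 6.20 in grhIM and 9.37 and 9.62 in wild-type, which is -3.44 ± 0.16 or 10.9-fold lower with an adjusted p of 0.000492. NR_002490 read 5.57 and 5.73 in grhIM and 8.36 and 8.21 in wild-type, which is -2.63 ± 0.13 or 6.19-fold lower with an adjusted p of 0.000532. All 3 were well above background on the 4 arrays, and the gap between genotypes was many times the spread of the replicates. All 3 calls were lost without the first wild-type array, where no target of the array was called, and those of NR_001617 and NR_002490 also with normexp correction (-1.98 and -1.30).

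The brightest non-coding target, NR_004021, read 19.20 and 19.14 in grhIM and 19.34 and 19.15 in wild-type (-0.07 ± 0.12). NR_003969 had the widest spread between replicates in both genotypes. It read 8.16 and 6.43 in grhIM and 8.49 and 6.53 in wild-type, so that replicate 1 lay far above replicate 2 in both genotypes while the difference was -0.21 ± 0.84 with a limma adjusted p of 0.886. Replicate 1 exceeded replicate 2 by over 0.3 in both genotypes in 4 of the 73 tested targets (5.48%), which also included U11, Eig63F-2 and Su(Ste) CR42418, against 2.89% of all tested targets.

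The chosen probes of the 13 targets that were not tested were at or near background. Of these, 9 passed on no array and 4 on 1 or 2 arrays. CR32385, inside Galphai, was well above background on a single wild-type array and read 2.34 and 1.96 in grhIM and 3.79 and 4.12 in wild-type. CR32730, inside Cph, passed on 1 array of each genotype and read 4.03 and 4.59 in grhIM and 3.88 and 3.64 in wild-type. Its slightly dimmer second probe was well above background on 3 arrays and differed by 0.59, with a limma adjusted p of 0.163 over all probes. CR33948, CR40465, CR41601 and the antisense RNA CR33945 were not well above background on any array, so nothing can be said of their direction.

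Where a target had several probes, they did not always give 1 answer. Of the 86 targets, 20 had more than 1 probe, and 19 had at least 2 that could be tested. All probes had the same sign in 15 of these and opposite signs in 4. The differences lay within 0.3 of each other in 11 and more than 1 apart in 4. Of the 19, 4 had a called probe, and in none were all probes called, so no call among them was shared by every probe of its target. These were 4 single probes, where the 20 targets with more than 1 probe had 43 probes. Over all tested probes of the array, 9.01% were called in the same fit. That is a share of single probes and not of targets with any called probe.

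The widest gap was that of CR30009, a gene of 2513 bases on chromosome arm 2R. Its brighter probe read 10.00 and 9.77 in grhIM and 9.29 and 8.19 in wild-type, a difference of 1.15 ± 0.37 with a limma adjusted p of 0.0974. Its other probe read 6.91 and 7.0 in grhIM and 9.96 and 9.77 in wild-type, a difference of -2.91 ± 0.14 with an adjusted p of 0.000409 over all probes. The probes thus pointed in opposite directions, each with the genotypes apart. A target of the same gene under a clone accession, RE30084, read 7.86 and 7.71 in grhIM and 7.46 and 6.94 in wild-type, with the sign of the brighter probe (0.58 ± 0.20, adjusted p of 0.113). Averaged over its probes the NR_ target was at -0.88 (adjusted p of 0.0561).

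The 3 other targets over 1 apart were unnamed. The called NR_003991 had a difference of 1.32 on its brightest probe and of -0.43 and -0.87 on the others, and its mean over probes was 0.01 (adjusted p of 0.984). The called NR_001617 had -3.44 on its brighter probe and -0.16 on the other. NR_001945 had 1.63 on its brightest probe, with a limma adjusted p of 0.0159, and 0.08 on both others. In NR_002478 the brighter probe gave 0.84 (0.0246) and the dimmer 1.48 (0.00362 over all probes), so there the sign held.

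**Figure D4:**
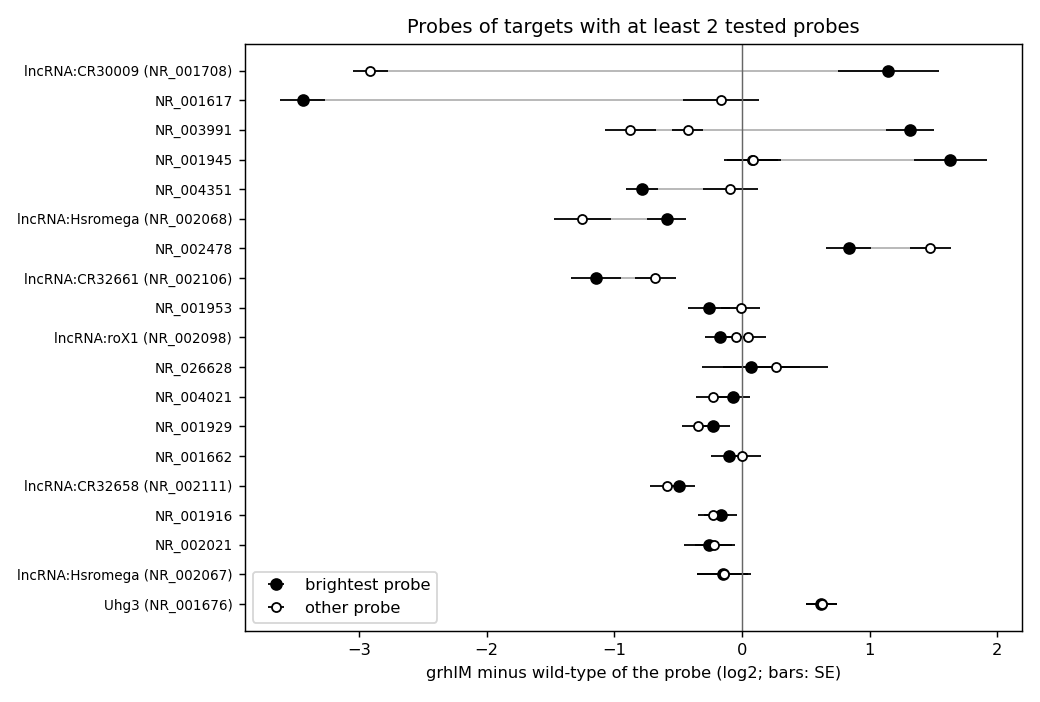
Difference between grhIM and wild-type (log2, x axis, bars for the standard error) of each probe of the 19 non-coding targets with at least 2 tested probes (y axis), with filled points for the brightest probe. In 11 targets the probes lie within 0.3 of each other, while CR30009, NR_001617, NR_003991 and NR_001945 have probes over 1 apart.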

How the data were processed

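The deposited scanner files hold intensity values that the authors made with Agilent Feature Extraction (10.7.3.1 per the file headers, grid of build dm3) from 4 arrays of 1 colour with 43603 gene spots. Its processed intensity has the background of the array removed and no scaling between arrays. The raw median intensity and the deposited flags (of another kind, 0 or 1) were used as well. A deposited table holds the authors' normalised intensity for part of the probes, including the chosen probe of 71 of the 86 non-coding targets. Per the labels, 50 µg of total RNA was cleaned and 500 ng converted to Cy3-labelled cRNA.

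Processed signals were taken to log2 and normalised together by cyclic loess (span 0.7, 3 iterations). Control spots were excluded, as were non-uniform and outlier spots (15 of 32162 probes had no others). Replicate spots were averaged, and none was saturated. A probe was well above background where at least 50% of its spots were so marked. Genotypes were compared with limma 3.58.1 (lmFit, eBayes; R 4.3.3), with p-values adjusted by Benjamini-Hochberg over all 20340 tested targets, and called at an adjusted p under 0.01. Single probes were fitted likewise over all probes. The fit was tested on simulated data.

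The non-coding targets, the gene lists and the tests were chosen with earlier results of these data known. Named are all called targets, all that the RefSeq table (Release 6) names, the 3 brightest and the 5 highest and lowest, unnamed accessions being limited to 2 in each direction. Further accessions in the text were chosen after their values were seen, and the other bright unnamed ones are not listed. Neighbouring genes come from the same table, without coordinates, since its build differs from that of the arrays. The planned motif search in promoters was not run. The number of arrays limits the precision, and nothing in the labels says how far the pools of a genotype were independent, so p-values measure only the spread between these samples. Alternatives were other normalisations, filters, probe rules, thresholds and eBayes settings, the deposited table, a replicate block, and each array left out. Same-numbered arrays had correlated deviations from their group means (r = 0.25 over 20340 targets), but with 2 pairs this does not settle a pairing.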

Additional observations from a re-analysis of the deposited data

How the results depend on the processing

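The 8 calls (11.0%) became 17 (23.3%) at an adjusted p under 0.05, where the share over all targets went from 9.23% to 20.8%. They became 13 (17.8%) with the replicate block, against 14.6% of all targets. With normexp (on the median signal) 3 (4.11%) were left, against 2.63% of all targets. Leaving out 1 array gave 0 to 7. The count of 0 came without the first wild-type array, where limma called no target of the array, the smallest adjusted p was 0.0103 and 31 non-coding targets (40.3%) had an unadjusted p under 0.05, against 38.9% of all targets. With 2 arrays the pairing by replicate number could not be settled. The block kept all 8 calls and added NR_001945, the alphagamma element, CR32661, NR_004351 and NR_004361. Under the remaining settings the count lay between 6 and 11, or 6.98% to 15.1%, where 3.37% to 11.7% of all targets were called. The median difference of -0.16 became -0.25 with spike-in scaling, where the median of all targets was -0.12, and lay at -0.20 to -0.092 when 1 array was dropped (-0.092 without the first grhIM array). Over these settings the non-coding median stayed below that of all targets, by 0.08 to 0.17. The number well above background, 73, lay between 73 and 77 with an array left out, and 74 to 77 targets were tested. The Su(Ste) difference of 0.00 became 0.038 with 75th percentile scaling, 0.023 with quantile normalisation, 0.054 with normexp and 0.0022 in the deposited table, and -0.29 to 0.29 when 1 array was dropped. With normexp U11 became 0.010, Eig63F-2 0.051 and NR_003969 0.23. CR30009 became -0.88 as a mean over probes and the roX2 target NR_002104 -0.013 with spike-in scaling. With an array left out, the ranges were -0.32 to 0.14 for U11, -1.19 to 0.79 for NR_003969, -0.39 to 0.071 for Hsromega NR_002067, -0.060 to 0.88 for sphinx, -0.54 to 0.074 for Psi28S-291, -0.33 to 0.19 for the U3 target NR_002544 and -0.36 to 0.21 for U3:9B. None of the targets that turned sign was called, and the cause was not tested. Signal over background limits bxd and Eig63F-2, whose differences change with the background correction.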

Other observations

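A non-coding RNA that the array lists under a clone accession also showed a change, and that clone is not among the 86 targets. The hairpin RNA gene CR33940 (clone RH57193), whose name marks it as a source of small interfering RNAs made from a folded precursor, read 13.39 and 13.58 in grhIM and 11.46 and 11.58 in wild-type. Both grhIM arrays were higher, by 1.96 ± 0.13 (SE, n = 2 per genotype), with a limma adjusted p of 0.00112. The unnamed NR_001975 had the same difference to 2 decimals, and whether both read 1 transcript was not tested. The other tested non-coding genes under clone accessions were not called. The lncRNA CR32194 differed by -0.81 (adjusted p of 0.0259), the antisense RNA CR31429 by -0.48 (0.161) and the antisense RNA CR31514 by -0.16 (0.680). The gene and its accession were chosen after their values were seen.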
